A study of Homo sapiens with 5 samples.

Results

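Propyl gallate, a gallic acid ester used as an antioxidant food additive, was compared with the vehicle control by reduced representation bisulfite sequencing (RRBS) in human iPSCs of the established line 201B7 (HPS0063). The members were 2 of the 5 libraries of the series, 1 after 1 uM propyl gallate and 1 after 0.1% DMSO, and all 288391 windows of 1000 bases of the deposited table were used. The other 3 libraries came from cells given 1 nM etoposide, 1 uM theophylline or 10 nM 5-aza-dc. Every exposure lasted 48 h, and the labels gave the genotype of all cells as WT. The cells grew without feeder cells on a laminin fragment. The paper's imaging assay used a derivative of this line carrying a fluorescent methyl-CpG-binding reporter (mCherry-MBD-nls). Its RRBS methods do not say whether the sequenced cells carried that reporter. Each condition had 1 library, so a difference between propyl gallate and vehicle could not be set against replicates, and the scatter between the other libraries was used as a description in its place. The libraries were made from 1 cell line, and nothing in them shows how cells of another donor would behave.

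DNA methylation in mammals sits mostly on cytosines of CpG sites. DNMT3A and DNMT3B place it anew, DNMT1 copies it after replication, and TET enzymes oxidise it. CpG islands at gene starts are mostly unmethylated in pluripotent cells, while the open sea, the CpG-poor sequence far from islands, is mostly methylated. RRBS cuts DNA with a restriction enzyme at CCGG and reads the ends of short fragments, so windows dense in CpG are read most. The β-value is the percentage of cytosine calls in a window that were methylated. A call is 1 cytosine of 1 read and not an independent molecule. Each interval below reflects counting error alone and treats calls as independent, so it may be too narrow.

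The windows held 205207822 calls after propyl gallate and 228919184 in the vehicle control, with a median of 451 and 499 calls a window and 398 to 427 in the other libraries. The median width of the 95% Wilson interval of a window was 4.89 percentage points after propyl gallate. Promoter levels of pluripotency markers were checked against the label. Of 6 marker promoters with a value, 4 lay under 10% in both libraries (SOX2, PRDM14, DPPA4 and L1TD1), and 2 did not. ZFP42 read 24.2% in the vehicle control and 20% after propyl gallate, and DNMT3B 92.3 and 95.1%. None of the 6 was called, and their differences ran from -4.2 to 2.8 percentage points. POU5F1 and NANOG had no promoter value here, and the promoters of 1 fibroblast, 3 early neural and 3 mesendoderm markers with a value were under 10% as well. Promoter islands are unmethylated in most cell types, so these values are a weak check.

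The 250 bases before the gene start are shown for 4 genes whose promoter windows carried a difference described here: GRAMD4 and FZD9, with the highest β-values after propyl gallate beside low values elsewhere, and ZFP42 and C14orf93, with a fall. The sequences are those of RefSeq on GRCh38.p14, from 5′ to 3′ on the strand of the gene, with each CG in capitals. The GRAMD4 sequence is chr22:46576838-46577087 on the plus strand, with 51 CG and 4 CCGG, and 87 of its bases lie in the measured window. The FZD9 sequence is chr7:73433528-73433777 on the plus strand, with 23 CG and 5 CCGG. The ZFP42 sequence is chr4:187995521-187995770 on the plus strand, with 23 CG and 5 CCGG. The C14orf93 sequence is chr14:23010144-23010393 on the minus strand, with 29 CG and 5 CCGG. Across all 35116 promoter sequences of the same length the median was 11 CG, and 58.5% held at least 1 CCGG, a motif that reads the same on both strands.
GRAMD4: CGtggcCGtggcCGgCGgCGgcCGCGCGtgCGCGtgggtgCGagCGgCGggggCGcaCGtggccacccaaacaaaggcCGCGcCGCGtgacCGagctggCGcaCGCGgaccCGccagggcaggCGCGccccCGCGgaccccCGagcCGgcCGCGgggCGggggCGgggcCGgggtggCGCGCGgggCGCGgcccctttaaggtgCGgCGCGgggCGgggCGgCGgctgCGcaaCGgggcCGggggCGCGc
FZD9: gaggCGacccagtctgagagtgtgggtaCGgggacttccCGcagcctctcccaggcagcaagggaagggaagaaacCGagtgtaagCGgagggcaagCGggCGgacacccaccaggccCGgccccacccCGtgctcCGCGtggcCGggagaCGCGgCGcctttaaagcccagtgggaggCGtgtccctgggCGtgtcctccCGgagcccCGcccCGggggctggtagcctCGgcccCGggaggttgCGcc
ZFP42: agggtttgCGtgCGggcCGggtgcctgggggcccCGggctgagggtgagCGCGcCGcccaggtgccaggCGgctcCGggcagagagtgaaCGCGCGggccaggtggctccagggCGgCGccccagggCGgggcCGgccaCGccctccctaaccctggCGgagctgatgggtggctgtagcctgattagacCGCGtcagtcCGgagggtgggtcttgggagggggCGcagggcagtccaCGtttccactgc
C14orf93: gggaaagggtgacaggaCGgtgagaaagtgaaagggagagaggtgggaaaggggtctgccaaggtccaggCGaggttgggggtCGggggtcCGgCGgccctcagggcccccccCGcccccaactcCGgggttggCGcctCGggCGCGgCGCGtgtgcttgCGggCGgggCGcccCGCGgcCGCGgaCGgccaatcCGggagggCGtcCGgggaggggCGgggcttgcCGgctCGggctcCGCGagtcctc

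Over all windows, methylation was slightly higher after propyl gallate than in the vehicle control. The mean β-value was 79.95% after propyl gallate and 79.38% in the vehicle control, beside 78.35% for 5-aza-dc, 79.89% for etoposide and 80.36% for theophylline. The propyl gallate library therefore lay 0.566 percentage points above the vehicle control, with a counting interval of 0.555 to 0.576. It lay inside the range of the other libraries, 0.0526 above etoposide and 0.410 below theophylline. With etoposide, theophylline or 5-aza-dc as the reference, the difference of the propyl gallate library was 0.0526, -0.410 or 1.60 percentage points. More windows were higher (55.3%) than lower (43.9%) after propyl gallate than in the vehicle control. The root mean square difference over windows was 5.12 percentage points between propyl gallate and vehicle and 5.13 to 6.30 in the other 9 pairs of libraries.

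The difference was positive on all 22 autosomes, between 0.431 percentage points on chromosome 19 and 0.686 on chromosome 4. The propyl gallate library was neither the highest nor the lowest of the 5 on any of the 22. It lay above etoposide on 17 autosomes, by 0.00620 to 0.127 percentage points, and below it on the other 5. It lay above theophylline on 0 autosomes and above 5-aza-dc on 22. Its place among the libraries thus changed little from chromosome to chromosome.

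By relation to CpG islands, the difference grew from islands outwards. In CpG islands the mean was 41.54% in the vehicle control and 41.72% after propyl gallate, a difference of 0.176 percentage points (0.160 to 0.191, 49761 windows). It was 0.509 (0.475 to 0.543) in shores, 0.588 (0.546 to 0.630) in shelves and 0.675 (0.661 to 0.689) in the open sea, where the means were 88.14% and 88.82% over 188683 windows. The corresponding differences of etoposide from the vehicle control were 0.178, 0.461, 0.613 and 0.599. The propyl gallate library held rank 3 or 4 of 5, from the lowest, in every one of these sections.

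By gene part, promoters differed least among the parts with more than 1000 windows. They averaged 44.88% in the vehicle control and 45.16% after propyl gallate, a difference of 0.281 percentage points (0.255 to 0.308), which became 0.0920 with all calls pooled. Introns differed by 0.640 (0.614 to 0.665), intergenic windows by 0.647 (0.631 to 0.663), exons by 0.523 (0.441 to 0.605; 0.329 with calls pooled) and windows 1 to 5 kb upstream of a gene by 0.565 (0.523 to 0.607). Within islands alone, the 16238 promoter windows differed by 0.0517 (0.0298 to 0.0735) and the 12242 intergenic windows by 0.383 (0.345 to 0.422). Island promoters were mostly unmethylated, at 19.27% in the vehicle control, and intergenic islands mostly methylated, at 66.18%. Gene part and level of methylation therefore moved together in these values.

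The direction changed with the level of methylation. Windows were put into classes by the mean of the 3 libraries outside the comparison. Windows under 2% differed by -0.0474 percentage points (-0.0596 to -0.0352), those at 2 to 10% by -0.165 (-0.197 to -0.132) and those at 10 to 30% by -0.103 (-0.188 to -0.0169). From 30% upwards the difference was positive. It was 0.284 (0.20 to 0.369) at 30 to 70%, 0.754 (0.728 to 0.779) at 70 to 90% and 0.636 (0.623 to 0.648) at or above 90%. With all calls pooled, the differences of the classes at 2 to 10%, 10 to 30% and 30 to 70% were -0.0429, -0.168 and 0.0672. Propyl gallate thus read slightly lower than the vehicle control in sparsely methylated windows and higher in densely methylated ones. Among the low classes of islands and of the open sea taken apart, this sign was missing in islands at 10 to 30% (0.0419, -0.0391 to 0.123). It was also missing in the open sea under 2% (0.0434, -0.0576 to 0.144), and the others were negative. With classes set by the mean of all 5 libraries, the signs were kept in all 6 classes. Etoposide lay below the vehicle control in the same 3 low classes, with differences of -0.0692, -0.160 and -0.228 percentage points beside -0.0621, -0.117 and -0.140 for propyl gallate. In these classes 5-aza-dc also lay below it, by -0.0695, -0.878 and -2.62, while theophylline lay above it, by 0.0376, 0.110 and 0.448.

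**Figure D1:**
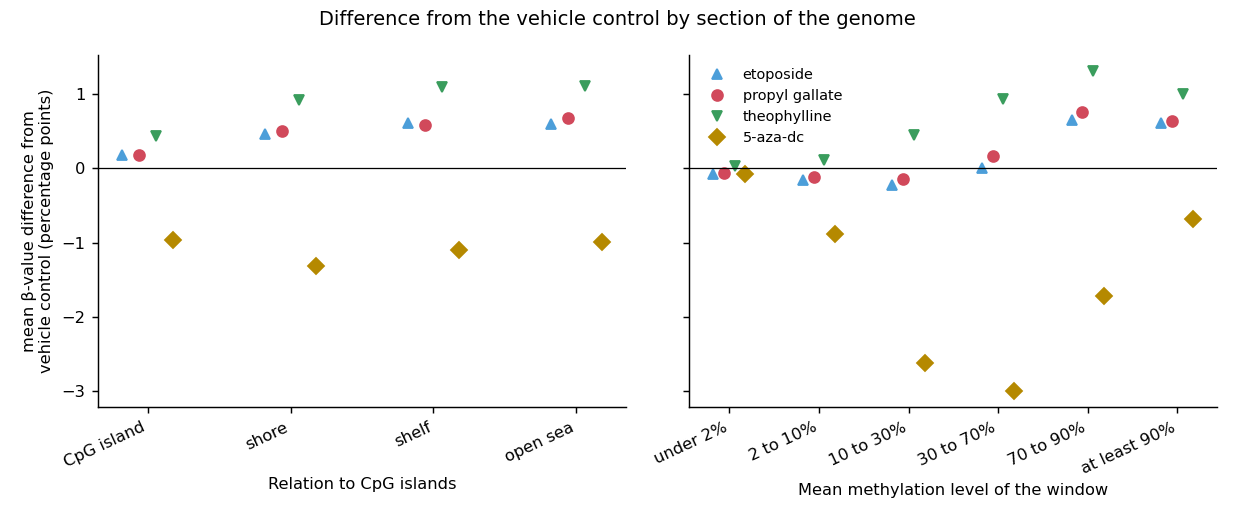
Mean β-value difference from the vehicle control (percentage points, vertical axis) by relation to CpG islands (left) and by mean level of the window over all 5 libraries (right), 1 point per library. Propyl gallate rises from 0.176 in islands to 0.675 in the open sea and lies below 0 in the 3 classes under 30%; all points share the vehicle control library.

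Single windows were tested with Fisher's exact test on the calls of the 2 libraries, adjusted by Benjamini-Hochberg over all windows. The test compares 2 libraries and not 2 conditions. It also treats calls as independent, which calls of the same read are not, so its p-values may be too small. A window was called where the adjusted p was below 0.01 and the libraries lay 25 percentage points or more apart. After propyl gallate 270 windows were called higher, 0.0936% of all, and 240 lower, 0.0832%. The other pairs of libraries gave between 503 and 1086 called windows, so the 510 of propyl gallate against vehicle were near the low end. With a limit of 10 percentage points in place of 25, 3857 windows rose (1.34%) and 2538 fell (0.880%).

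A called window was said to be beyond the other libraries where the propyl gallate library lay at least 10 percentage points above or below each of the other 4. This held in 207 of the 510 windows, 61 higher and 146 lower. In 197 of the 510 it was the vehicle control that stood apart from the other 4 by as much, 152 of them higher and 45 lower after propyl gallate. Both stood apart in 20 and neither in 126. In both cases the library that stood apart was thus more often the lower one. Among windows with at least 100 calls in all 5 libraries, 20 were higher and 9 lower where propyl gallate stood apart, so the split turned, and 14 were higher and 10 lower where the vehicle control did, so it did not turn. Over all windows with that many calls, called or not, propyl gallate lay at least 10 percentage points above all others in 124 and below them in 263. Over all windows, tested or not, propyl gallate lay at least 25 percentage points above all others in 25 windows and below them in 90, against 21 to 35 and 92 to 455 for each other library.

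Called windows were read thinly. Their median was 69.0 calls after propyl gallate and 74.0 in the vehicle control, and 327 of 510 had at least 30 calls in all libraries. They also differed in how much of the library they took. The share of the library's calls that fell in a window stayed within 1.25-fold between the 2 libraries in 65.8% of all windows but in 24.1% of the called ones. It at least doubled or halved in 3.48% of all windows and in 36.9% of the called ones. Of the 123 called windows whose share stayed within 1.25-fold, 64 were higher and 59 lower, and propyl gallate stood apart in 12 and 36 of them. The part of these shifts in the differences was not tested.

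**Figure D2:**
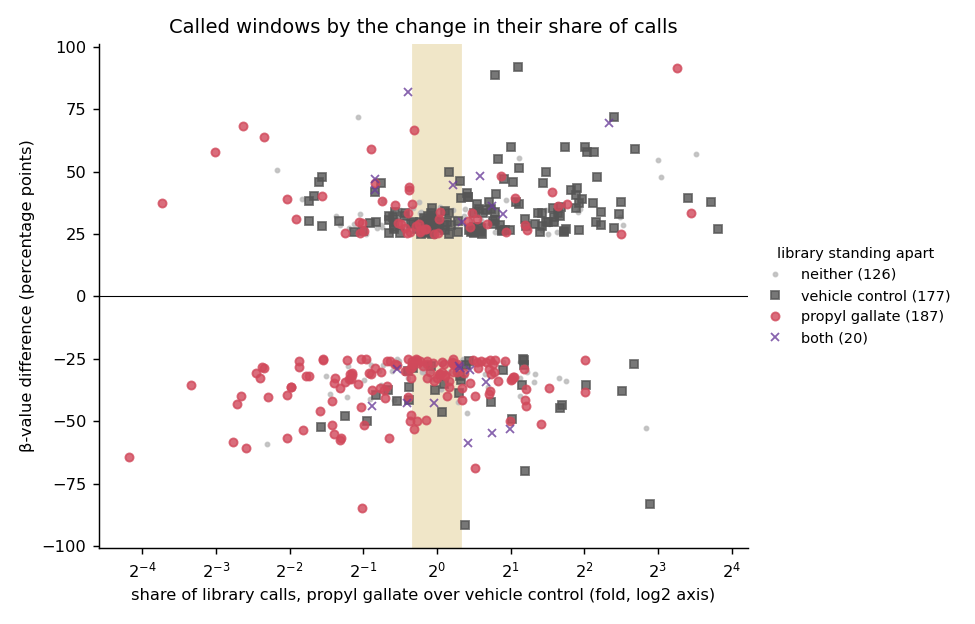
β-value difference between propyl gallate and vehicle control (percentage points, vertical axis) against the fold change in the window's share of library calls (horizontal axis, log2) for the 510 called windows, marked by the library that stood at least 10 percentage points apart from all others. The band marks shares within 1.25-fold, which hold 123 of the 510 windows.

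The windows described next are from the 10 highest and 10 lowest by distance from the nearest other library, among called windows with at least 30 calls in all 5. In the 10 higher windows that distance was 24.9 to 68.5 percentage points, and in the 10 lower ones 29.8 to 41.8. The 10 higher windows included 5 in CpG islands, and 6 had at least 100 calls in every library. The 10 lower windows included 3 in islands, and 0 had that many calls. A neighbour within 5000 bases was measured for 17 of the 20, and in 6 of them at least 1 neighbour passed an adjusted p of 0.01 in the same direction (6 of 79 neighbours). Over all windows, 29614 of 288391 passed that adjusted p in either direction, so the neighbours give no sign of a wider change. For most of the named windows, no measured neighbour passed in the same direction.

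The widest gap lay at the start of GRAMD4, which encodes a GRAM domain protein linked to apoptosis (ENSG00000075240, chr22:46577001-46578000, hg38, CpG island, intron-exon boundary). The window, which holds the start whose upstream sequence is shown above, read 12.3% in the vehicle control, 12.3% after etoposide, 10.1% after theophylline and 8.4% after 5-aza-dc, and 80.8% after propyl gallate (95% Wilson interval 72.6 to 87.2; adjusted p = 1.21e-44, Fisher's exact test). The other 4 libraries lay together, and propyl gallate lay far above them, as the choice by distance favours. Methylated calls numbered 94 of 762 in the vehicle control and 89 of 110 after propyl gallate, so that the methylated calls were nearly equal and the unmethylated ones went from 668 to 21. The window's share of the library's calls was 0.16-fold that of the vehicle control. The part of this fall in the result was not tested. The 5 neighbours within 5000 bases differed by -0.7 to 7.4 percentage points.

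The promoter island of FZD9, a Frizzled receptor for Wnt ligands, had the same shape (ENSG00000188763, chr7:73433001-73434000). It read 24.1% in the vehicle control, 17.2% after etoposide, 17.9% after theophylline, 20.5% after 5-aza-dc and 88.0% after propyl gallate (78.8 to 94.0; adjusted p = 5.11e-21, Fisher's exact test). Methylated calls were 94 of 390 in the vehicle control and 61 of 69 after propyl gallate. The share of calls was 0.20-fold, its part in the result was not tested, and the 5 neighbours differed by -16.7 to 4.8 percentage points. At GRAMD4 and at FZD9 alike, 1 of the 5 neighbours passed an adjusted p of 0.01 in the same direction, with no neighbour above 7.4 and 4.8 percentage points.

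FZR1, an activator of the anaphase-promoting complex, was high in an intronic island (chr19:3508001-3509000). It read 18.0% in the vehicle control, 1.9% after etoposide, 17.8% after theophylline, 20.7% after 5-aza-dc and 59.7% after propyl gallate (51.3 to 67.8; adjusted p = 1.98e-05, Fisher's exact test). Here the propyl gallate library had more calls, 132 against 50. A window of LOC399900, at the upstream side of FTH1, read 33.8% after propyl gallate (28.7 to 39.6) and 1.7 to 7.9% in the others (chr11:61968001-61969000, CpG island). FTH1 encodes the heavy chain of ferritin, the iron store of the cell. Methylated calls there rose from 13 of 165 in the vehicle control to 96 of 283 after propyl gallate (adjusted p = 1.72e-08, Fisher's exact test), with a share of calls of 1.91-fold.

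Several of the higher windows went from an intermediate level to a high one. An island window 4636 bases from RNU6-276P, a small nuclear RNA pseudogene, read 46.3 to 55.2% in the other libraries and 88.5% (84.5 to 91.4) after propyl gallate, with 327 calls (chr4:55793001-55794000). A shore window 7107 bases from NMI, an interferon-induced partner of MYC proteins, read 37.6 to 45.1% in the others and 71.1% (65.0 to 76.2) after propyl gallate. In both the propyl gallate library was clear of the other 4, which follows from the same choice by distance. The windows near HTR3A and MIR5702 read 100% after propyl gallate on 30 and 42 calls, beside 54.3 to 63.0% and 68.9 to 75.1%. Near LINC02870 the value was 82.6% beside 47.1 to 56.9%.

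The lower windows were mostly highly methylated in the other libraries. In BBS9, a subunit of the ciliary BBSome (chr7:33304001-33305000, open sea), the vehicle control read 96.4%, etoposide 100%, theophylline 98.3%, 5-aza-dc 81.3% and propyl gallate 39.5% (26.3 to 55.4; adjusted p = 1.01e-10, Fisher's exact test), on 40 calls after propyl gallate. In MRGPRG, an orphan receptor (chr11:3217001-3218000, island, 3′ UTR), they read 83.7%, 69.4%, 68.6%, 63.9% and 25% (16.1 to 37.8), in the same order. In ANAPC5, a subunit of the anaphase-promoting complex (chr12:121351001-121352000, CpG island), they read 94.6%, 97.6%, 93.4%, 96.2% and 62.5% (55.8 to 68.9; adjusted p = 9.29e-09, Fisher's exact test). ANAPC5 was the best covered of the 10 lower windows, with 206 calls after propyl gallate and 112 in the vehicle control. In all 3 the propyl gallate library did not overlap the others, which follows from the choice of windows by distance.

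The other 7 lower windows read between 40.3 and 58.8% after propyl gallate. They lay in BSG, which encodes basigin, in the RNA helicase gene DDX31, at the pseudogene RARRES2P9, in KCNJ12, an inward rectifier potassium channel, in CFAP74, a ciliary protein, near a Y_RNA on chromosome 10 and near ENSG00000261467 on chromosome 7. KCNJ12 has the near-identical copy KCNJ18, so its reads may be divided between loci, and its value is uncertain. The share of calls stayed within 1.25-fold in 2 of the 10 lower windows, DDX31 (1.12-fold) and the Y_RNA window (0.94-fold), and in 0 of the 10 higher ones. DDX31 read 90.5% in the vehicle control on 42 calls and 56.5% after propyl gallate on 42 calls (adjusted p = 0.00954, Fisher's exact test). The Y_RNA window read 89.2% on 93 calls and 58.8% on 78 calls (adjusted p = 0.000178, Fisher's exact test).

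Promoters were taken from 1500 bases before to 500 after a gene start, and the calls of their windows were pooled. Of 19531 promoters, 197 were called higher (1.01%) and 167 lower (0.855%) at an adjusted p under 0.01 and 10 percentage points. Propyl gallate lay outside the range of the other 4 libraries in 128 and 103 of them, and by at least 10 percentage points in 19 and 20. A pooled promoter also moves when calls shift between a methylated and an unmethylated window. With the mean of the window β-values in place of pooled calls, 90 of the 197 and 77 of the 167 kept a difference of at least 10 percentage points in the same direction.

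The 5 highest promoters show both kinds. GRAMD4 is the single window described above. C6orf62, of unknown function, rose from 40.7 to 71.5% pooled, but its island window read 1.1 and 1.4% and its shore window 90.8 and 96.9%, while calls in the island window went from 742 to 257. The mean of its windows differed by 3.2 percentage points. TMEM177, which takes part in cytochrome c oxidase assembly, rose from 46.8 to 73.4% pooled and by 8.2 in the mean of its windows, and its start window read 4.8% in the vehicle control, 6.5% after etoposide, 6.4% after theophylline, 2.8% after 5-aza-dc and 16.2% after propyl gallate. RNF14, a ubiquitin ligase that binds the androgen receptor, rose from 35.3 to 61.1% pooled and by 6.6 in the mean of its windows. ALDH1L1-AS1 rose from 25.7 to 48.5% pooled and by 1.8 in the mean of its windows. In 4 of the 5 highest promoters the pooled difference thus shrank below 10 percentage points when windows counted alike.

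Of the 5 lowest promoters, 4 rest on 1 window. GLIPR2, an inhibitor of autophagy at the Golgi (chr9:36137001-36138000, CpG island), read 70% in the vehicle control on 504 calls, 57.7% after etoposide, 55.6% after theophylline, 51.1% after 5-aza-dc and 35.7% after propyl gallate on 717 calls (adjusted p = 5.37e-30, Fisher's exact test). Propyl gallate was the lowest and the vehicle control the highest, with the other 3 close together between them. ZNF391, a zinc finger gene, read 65.3% in the vehicle control, 38.1% after etoposide, 42.6% after theophylline, 42.3% after 5-aza-dc and 35.7% after propyl gallate, so the vehicle control was the library far from the rest. LOC105370906, an uncharacterised locus, read 93.8% in the vehicle control and 64.8% after propyl gallate, with 79.3 to 83.2% in the others. LTC4S, the leukotriene C4 synthase gene, read 100 and 60.0%, on 10 calls after propyl gallate. WDR70 fell from 78.1 to 45.5% pooled and by 7.4 in the mean of its windows, as calls in its sparsely methylated window went from 66 to 575.

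Runs of at least 3 neighbouring windows, each past an adjusted p of 0.01 in the same direction and at most 2000 bases apart, were counted next. There were 59, 52 higher and 7 lower after propyl gallate, and 33 to 557 in the other pairs. Against the same vehicle control, theophylline gave 67 higher and 5 lower runs, etoposide 29 and 13, and 5-aza-dc 5 and 209. Propyl gallate against etoposide gave 16 higher and 17 lower. Pooled over its windows, propyl gallate lay outside the range of the other 4 libraries in 38 higher and 5 lower runs, and the vehicle control did so in 31 and 3. The median pooled difference was 5.8 percentage points in the higher runs and -7.3 in the lower ones.

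The longest higher runs with propyl gallate outside the range had 4 windows each. In INPP5A, an inositol phosphatase gene (chr10:132640001-132646000), the pooled level was 80.8% in the vehicle control, 87.8% after etoposide, 86.3% after theophylline, 85.6% after 5-aza-dc and 89.6% after propyl gallate. In AOPEP upstream of MIR23B it was 90.1%, 93.8%, 94.7%, 92.9% and 96.3%, and in GAK, a clathrin uncoating kinase gene, 89.5%, 91.9%, 93.5%, 91.0% and 94.7%, in that order. Propyl gallate passed the nearest library by 1.77, 1.57 and 1.21 percentage points in these runs. In the 2 named higher runs of 3 windows it passed it by 6.37 and 5.44. These were the widest such distances among higher runs of 3 windows, so their size follows from the choice. In PTPRN2, which encodes a secretory granule protein (chr7:158316001-158319000, CpG island), the level was 74.7% in the vehicle control, 80.0% after etoposide, 77.9% after theophylline, 75.9% after 5-aza-dc and 86.4% after propyl gallate. In SLC6A18, an amino acid transporter gene (chr5:1246001-1252000), it was 70.3%, 77.5%, 77.2%, 71.9% and 83.0% in that order.

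The deepest lower run lay in the open sea near DCAF12L1 (chrX:126579001-126582000). It read 70.6% in the vehicle control, 82.6% after etoposide, 74.0% after theophylline, 78.4% after 5-aza-dc and 49.3% after propyl gallate on 899 calls, 21.32 percentage points below the nearest library. The run over PCDHB12 and PCDHB13, clustered protocadherins of neural cell contacts (chr5:141210001-141216000), read 69.9%, 70.7%, 72.5%, 65.2% and 57.2% in that order. Protocadherin genes resemble each other closely, so reads may be divided between them. C14orf93, whose upstream sequence is shown above, read 45.0% in the vehicle control, 46.5% after etoposide, 41.4% after theophylline, 33.8% after 5-aza-dc and 30.2% after propyl gallate over 3 promoter windows. The window that holds the shown sequence read 18.8%, 17.3%, 8.7%, 9.6% and 10.4% in that order. Theophylline and 5-aza-dc thus lay below propyl gallate in that window. The runs at LOC107986549 and in TAFA5 fell by 6.3 and 7.3 percentage points, the latter to 9.9% with 10.6 to 12.8% in the 3 libraries outside the comparison.

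Across 35663 RefSeq genes with a window, 1389 held a window past 10 percentage points in which propyl gallate lay at least 5 percentage points beyond every other library. Over all 288391 windows, 781 rose and 1206 fell in this way. At least 2 such windows in 1 direction were held by 24 genes for rises and 45 for falls. The same count with the vehicle control as the library apart was 1484 genes, with 59 and 7. The genes with at least 3 such falls, chosen after their values were seen, were ECE1, CMIP, GSE1, RORA, LOC105370906, PTPRN2 and the protocadherin cluster PCDHB@, and those with at least 3 rises were CAMTA1, PTPRN2 and VSTM2B-DT. PTPRN2 held 4 rises and 3 falls among 352 windows, and CAMTA1 3 rises and 2 falls among 231. The windows numbered 278 in GSE1, 80 in CMIP, 52 in ECE1, 43 in PCDHB@ and 38 in RORA. Long genes have more windows in which such a difference can fall. LOC105370906, with 4 falls among 21 windows, had the lowest mean difference of these genes, -3.88 percentage points, and VSTM2B-DT, with 3 rises among 41, the highest, 1.73.

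Gene lists were described by the windows over each gene and 1500 bases upstream, at an adjusted p under 0.01 and 10 percentage points, a rule passed upwards by 1.34% and downwards by 0.880% of all windows. The median difference over all windows was 0.358 percentage points. Propyl gallate lay beyond all 4 other libraries in 63.3% of all windows that rose by this rule and in 75.5% of those that fell, so such a place is the usual one among windows picked in this way. Members were chosen with earlier results of these data known, and no list was tested.

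Antioxidant response genes, the targets and regulators of NRF2, had 2 windows higher and 1 lower of 216, with a median difference of 0.0165 percentage points, and 0 of 21 promoters with a value were called. FTH1 had no promoter value, so the promoter count leaves out its upstream window described above. OSGIN1, an oxidative stress response gene, read 72.2% in the vehicle control, 89.8% after etoposide, 83.1% after theophylline, 79.8% after 5-aza-dc and 96.6% after propyl gallate in a window of 54 calls. MAFG, a small MAF partner of NRF2, read 100%, 89.0%, 98.7%, 91.6% and 74.7% in that order (adjusted p = 4.71e-07, Fisher's exact test). NFE2L2, which encodes NRF2, had 5 windows and 0 of them past the rule.

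Xenobiotic sensing and phenol metabolism genes had 3 windows higher and 1 lower of 161, with a median of 0.681 percentage points. ARNT, the partner of the aryl hydrocarbon receptor, read 63.9% in the vehicle control, 59.8% after etoposide, 70.6% after theophylline, 60.6% after 5-aza-dc and 82.2% after propyl gallate in a shore at its promoter (280 calls in each of the 2 libraries; adjusted p = 6.74e-05, Fisher's exact test). In another ARNT window it rose from 75.0% on 40 calls to 94.3% on 224 calls, with a share of calls of 6.25-fold. AHRR, the repressor of that receptor, rose from 76.5 to 90.1% with 80.9 to 85.9% in the others. ESR1, the estrogen receptor, fell from 30.4 to 15.9% with 19.9 to 30.5% in the others. Propyl gallate lay 0.9 to 11.6 percentage points from the nearest other library in these 4 windows.

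Writers, erasers and readers of DNA methylation had 1 window higher and 3 lower of 228, with a median of 0.235 percentage points. In an intron of the methyltransferase gene DNMT3A, propyl gallate read 7.2% beside 31.2% in the vehicle control, 12.7% after etoposide, 28.9% after theophylline and 7.1% after 5-aza-dc. In a window within the demethylase gene TET1 it read 60.9% beside 75.9%, 62.1%, 72.3% and 60.8%, in the same order. In both windows propyl gallate did not pass 5-aza-dc. TET3 rose from 73.6 to 88.7% with 81.2 to 86.6% in the others. The methyl-CpG reader MBD2 read 92.3% in the vehicle control and 82.3% after propyl gallate with 90.5 to 96.1% in the others. The MBD1 promoter was called, at 24.8% pooled in the vehicle control, 40.9% after etoposide, 33.1% after theophylline, 21.4% after 5-aza-dc and 40.3% after propyl gallate, with -0.8 percentage points in the mean of its windows. The DNMT3A promoter was called in 2 overlapping sets of windows, at 13.2 and 27.7% and at 11.0 and 22.5% pooled, with theophylline higher at 32.8 and 25.6% and differences of 4.6 and 3.3 percentage points in the mean of the windows. In these called promoters propyl gallate lay inside the range of the other libraries, while in the TET3 and MBD2 windows it lay outside.

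DNA damage response genes had 1 window higher and 1 lower of 164, with a median of 0.0237 percentage points. CDKN1A, the p21 cell cycle inhibitor, read 96.3% in the vehicle control, 93.8% after etoposide, 89.9% after theophylline, 95.1% after 5-aza-dc and 75.8% after propyl gallate (adjusted p = 1.67e-07, Fisher's exact test), with a share of calls of 0.95-fold. CHEK2, a checkpoint kinase, read 77.9%, 96.6%, 95.2%, 98.8% and 100% in that order, so the vehicle control was the library apart. The promoter shared by BRCA1 and NBR2 fell from 67.6 to 52.2% pooled with 61.9 to 70.9% in the others, and by 3.6 in the mean of its windows.

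Pluripotency genes had 1 window higher and 1 lower of 59, with a median of -0.0139 percentage points. ZFP42, whose sequence is shown above, read 60.9% in the vehicle control, 56.3% after etoposide, 60.0% after theophylline, 37.2% after 5-aza-dc and 44.3% after propyl gallate on 893 calls (chr4:187995001-187996000; adjusted p = 4.86e-09, Fisher's exact test). It lay between 5-aza-dc and the rest. DPPA2 rose from 86.1 to 97.8% with 90.3 to 92.7% in the others.

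Imprinted genes, methylated on 1 parental copy, had 8 windows higher (3.76%) and 6 lower (2.82%) of 213, with a median of 0.373 percentage points. Of their windows, 21.6% lay at 30 to 70%, against 4.12% of all windows. At that level, 11 of the 46 imprinted windows (23.9%) and 788 of 11891 of all windows (6.63%) passed the rule in either direction. The calls per window were not matched in this comparison. All imprinted windows past the rule lay in 7 genes, some side by side, as at H19, MEG3, GNAS and NNAT, so they are not separate loci. With the windows that the deposited table assigns to the imprinted genes, 4 were higher and 3 lower. IGF2, a growth factor gene, read 58.6% in the vehicle control, 72.5% after etoposide, 57.7% after theophylline, 64.6% after 5-aza-dc and 95.6% after propyl gallate on 41 calls. GNAS, which encodes a G protein subunit, read 62.3%, 77.6%, 31.4%, 41.4% and 31.9% in that order in a promoter island window on 404 calls. MEG3, a long non-coding RNA gene, read 66.9%, 65.5%, 55.9%, 70% and 88.0% in 1 island window and 61.6%, 69.6%, 89.9%, 59.0% and 82.2% in the next. H19, another non-coding RNA gene, rose from 59.3 to 79.0% with etoposide at 84.7%. Propyl gallate was outside the range of the others in 8 of the 14 windows. The spread of the other 4 libraries differed between windows, and in a GNAS intron they read 50.6 to 53.8% beside 39.3% after propyl gallate.

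Developmental transcription factors had 5 windows higher (1.19%) and 0 lower of 421, by Fisher's exact test, with a median of 0.0661 percentage points. With the windows that the deposited table assigns to these genes, 8 were higher and 2 lower. PAX7 of muscle and neural crest read 34.3% in the vehicle control, 36.9% after etoposide, 38.2% after theophylline, 39.1% after 5-aza-dc and 51.9% after propyl gallate. An intron window of GATA3, a regulator of T cells and trophoblast, read 38.0%, 41.7%, 37.3%, 33.4% and 50.5% in that order, and a window in its 3′ UTR 77.2%, 90.1%, 87.2%, 85.3% and 93%. The island windows of FOXA1, an endoderm factor, and SOX9, a cartilage and gonad factor, read 24.0% and 27.2% after propyl gallate beside 8.0 to 11.9% and 13.8 to 20.7%. Propyl gallate was the highest library in these 5 windows, as it was in most windows that rose by the rule.

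The 9 genes the study took from its other assays (CCNA2, CCND2, CREBBP, JAG1, JUND, LIFR, NOTCH4, RB1 and SMAD4) had 93 windows, of which 0 were higher and 0 lower by the rule of Fisher's exact test and 10 percentage points, and 0 of 6 promoters with a value were called. The mean over the 41 windows of CREBBP, a histone acetyltransferase, was 86.8% in the vehicle control, 87.1% after etoposide, 87.4% after theophylline, 85.4% after 5-aza-dc and 88.2% after propyl gallate, a difference of 1.37 percentage points (0.62 to 2.12). LIFR, the receptor of leukaemia inhibitory factor, averaged 75.6%, 76.4%, 78.5%, 78.7% and 79.2% over 6 windows in that order. Propyl gallate was the highest library in both. NOTCH4, a Notch receptor, averaged 74.5% in the vehicle control and 76.6% after propyl gallate, inside the range of the others. SMAD4 of TGF-β signalling averaged 1.3% in the vehicle control and 0.7% after propyl gallate, below every other library, over 2 windows. The AP-1 member JUND averaged 26.2% in the vehicle control and 27.2% after propyl gallate, above every other library, over 4 windows. The counting intervals of the differences were -0.98 to -0.02 for SMAD4 and -0.65 to 2.65 percentage points for JUND. No window of either gene passed an adjusted p of 0.01 by Fisher's exact test. In JUND, 1 shore window of 80 calls after propyl gallate rose by 6.93 percentage points, and the others differed by -2.37 to 0.19. JAG1, CCNA2, CCND2 and RB1 differed from the vehicle control by -0.84 to 0.22 percentage points.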

How the data were processed

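Per the labels and methods, the authors trimmed 5 RRBS libraries with Trim Galore 0.5.0, aligned them with Bismark 0.20.0 to hg38, and used methylKit 1.10.0 to sum CpG calls over windows, filter and scale coverage, and merge libraries. Values of the vehicle control were deposited as counts. For the other libraries the authors scaled the calls by a factor and rounded, so they are a score. The deposited β-values are a fraction, given here in percent. A Fisher test on counts was the plan; Fisher's exact test was run on calls worked back from the factors (1.09 for propyl gallate, 1.15 to 1.21 for the others), which returned at least 99.46% of the deposited values. No per-sample column was left unused. Gene spans and starts came from RefSeq GRCh38.p14, and starts of chromosome 8 from the deposited table. Soft-masked sequence and distance to chromosome ends were not analysed here. Members and lists were chosen with earlier results of these data known. Windows were named by distance from the other libraries (10 each way, at least 30 calls) and promoters by difference (5 each way). Runs were named by number of windows and, at equal number, by distance from the other libraries (up to 5 each way). List members were named by size (up to 4 a list). Of the named higher windows, 1 is counted but its values are not reported here. The test was checked on simulated data with independent calls. Analyses used Python 3.11.15, numpy 2.4.6, pandas 2.3.3 and numba 0.67.0.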

Additional observations from a re-analysis of the deposited data

How the results depend on the processing

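The mean difference over all windows was 0.540 percentage points with at least 30 calls in all libraries, 0.517 with at least 100, 0.548 with β-values from the calls before scaling, 0.358 as a median and 0.407 with all calls pooled. Against etoposide it was 0.0526, against 5-aza-dc 1.60, and against theophylline it reversed to -0.410. Windows called higher and lower numbered 3857 and 2538 at 10 percentage points, 54 and 57 at 40, 178 and 144 at an adjusted p under 0.001, 174 and 155 with at least 30 calls, 40 and 26 with at least 100, 67 and 58 with calls divided by 2, and 64 and 59 with a steady share of calls, a setting added after the data were seen. Windows with propyl gallate beyond the others numbered 163 higher at any distance, 15 and 54 at 25 percentage points, 86 lower with at least 30 calls, 20 and 9 with at least 100, 26 and 31 with calls divided by 2, and 12 and 36 with a steady share. With calls divided by 2, 11 of the 20 named windows were still called. The open sea minus island difference was 0.45 with calls pooled, against 0.500. The difference of windows at 70 to 90% minus those under 2%, 0.801, became 0.772 with at least 30 calls and 0.687 with calls pooled. Called promoters numbered 109 lower within 500 bases of the start, 9 and 12 at 25 percentage points, 110 and 95 by the mean of window β-values, and 90 and 77 with both, the last added after the data were seen. Runs numbered 702 and 292 with at least 2 windows and 159 and 38 at an adjusted p under 0.05. Windows of the gene lists past 10 percentage points numbered 8 lower, against 13, when taken from the deposited gene assignment. The cause of these changes was not tested beyond the settings' own construction. No paired analysis was possible because each condition had 1 library. Windows with few calls limit what can be detected: the median Wilson interval of 4.89 percentage points does not hold for them.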
